A study of Mus musculus with 8 samples.

Results

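The genes Ccl2, Ccl7 and Ccl12 encode monocyte chemoattractants and lie in 1 cluster of CC chemokine genes on mouse chromosome 11. Their peaks of the transcription factor IRF5 were taken from 6 deposited peak lists. A peak belonged to a gene when the deposited annotation gave that gene as the nearest one, or listed its promoter. By this rule the 3 genes, of 21312 genes named in the lists, held 9 of 13553 peaks in CpG 1, 8 of 25851 in CpG 2, 10 of 29226 in control 1 and 12 of 37315 in control 2. The 2 lists made by the authors for whole conditions held 8 of 15249 peaks for CpG and 7 of 28465 for the control. The genes were picked because they had promoter peaks in these lists, so the presence and rank of those peaks are given as a description.

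IRF5 was mapped by CUT&Tag, in which an antibody (ab21689 of abcam) brings a transposase to the DNA beside its target. The cells were wild-type macrophages grown from mouse bone marrow and stored frozen before the assay. They had been given CpG, a DNA ligand of Toll-like receptor 9, or PBS as the control. The dose, the time of stimulation, and the age and sex of the mice are not given in the labels. Each condition had 2 anti-IRF5 libraries, named CpG 1 and CpG 2 and control 1 and control 2 here, and the labels do not say whether these came from separate cultures or animals, so every p-value measures only the spread between libraries, which may be technical. File names show that both CpG lists were called against 1 IgG library of the CpG condition and both control lists against 1 IgG library of the control, so the background library and the condition cannot be told apart.

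Ccl2 (also known as MCP-1), Ccl7 (MCP-3) and mouse Ccl12 (MCP-5) are ligands of the receptor CCR2 and draw monocytes out of the bone marrow and into inflamed tissue. Macrophages make them after Toll-like receptor stimulation. IRF5 is activated downstream of MyD88, binds interferon regulatory elements built on GAAA repeats, and is known for driving inflammatory cytokine genes in macrophages. The cluster also holds Ccl11 (eotaxin-1), which attracts eosinophils, Ccl8 (MCP-2) and Ccl1, which attracts cells with the receptor CCR8.

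In the coordinates of the files (build not given in the sources used), Ccl2 (ENSMUSG00000035385) spans 81926396 to 81928279 on the plus strand. Ccl7 (ENSMUSG00000035373) spans 81936537 to 81938351, and Ccl12 (ENSMUSG00000035352) spans 81992670 to 81994226, both on the plus strand. The start of Ccl7 lies 10141 bp after that of Ccl2, the start of Ccl11 12111 bp after that of Ccl7, the start of Ccl12 44022 bp after that of Ccl11, and the start of Ccl8 13340 bp after that of Ccl12. Ccl2 lies within Gm17268, a gene annotated on the opposite strand. The Ccl2 promoter peak was assigned to Gm17268 as its nearest gene in CpG 2, control 1 and control 2, and it entered through the promoter listing.

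**Figure D1:**
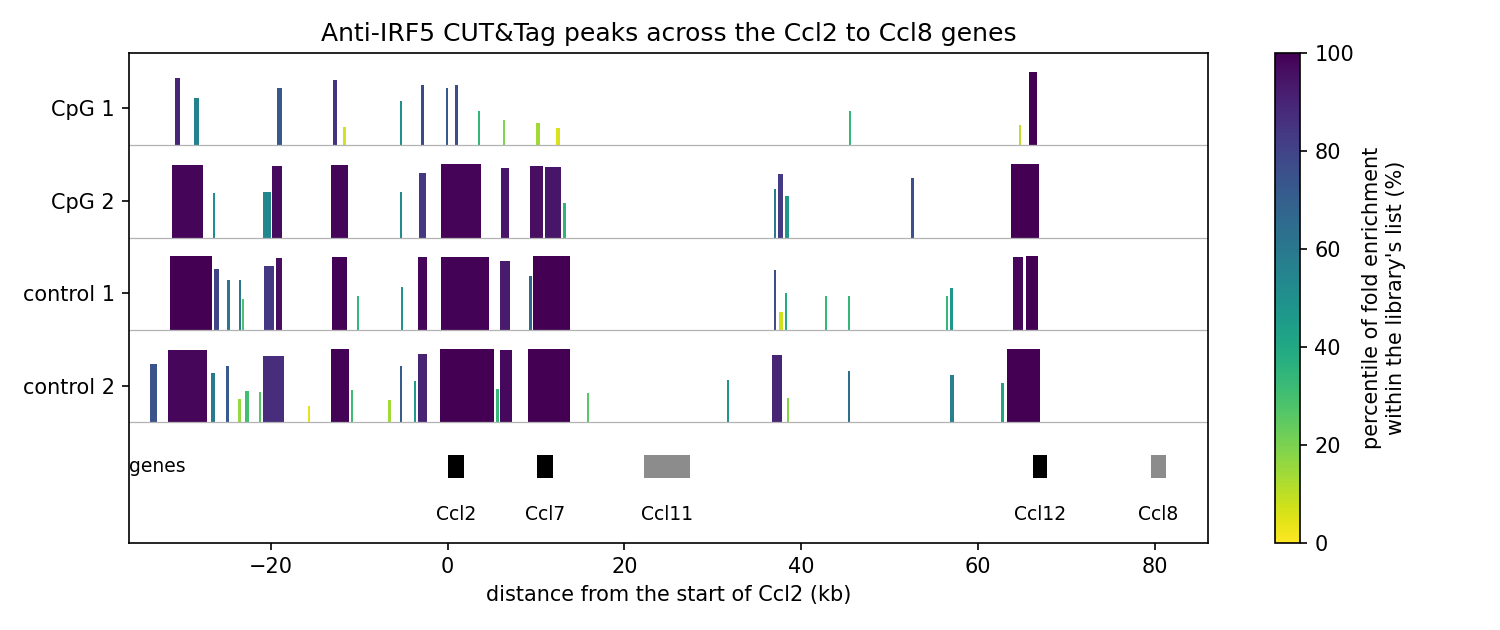
Peaks of each library (CpG libraries above the control libraries) across the chromosome 11 cluster, with distance from the Ccl2 start in kb on the horizontal axis and the genes from Ccl2 to Ccl8 below. The colour of a bar is the percentile of the peak's fold enrichment within its own list, its height grows with the percentile from a fixed minimum, and narrow peaks are drawn at a minimum width. All 4 libraries have a peak at the starts of Ccl2, Ccl7 and Ccl12, and none has one at the starts of Ccl11 or Ccl8.

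Of the 6 genes of the cluster, the promoter sequences of Ccl12 and its neighbour Ccl8 are shown because the first had promoter peaks in every list and the second in none. They are the 250 bases before the RefSeq gene start in the build GRCm38.p6, whose coordinates differ from those of the files, with the TATAAA box in capitals. The Ccl12 window is chr11:82101595-82101844 and the Ccl8 window chr11:82114935-82115184, both on the plus strand.
Ccl12: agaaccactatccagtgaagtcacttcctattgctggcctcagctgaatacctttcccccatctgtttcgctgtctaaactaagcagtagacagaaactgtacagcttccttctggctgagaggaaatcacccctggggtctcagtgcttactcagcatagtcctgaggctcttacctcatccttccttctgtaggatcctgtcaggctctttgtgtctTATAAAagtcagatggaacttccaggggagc
Ccl8: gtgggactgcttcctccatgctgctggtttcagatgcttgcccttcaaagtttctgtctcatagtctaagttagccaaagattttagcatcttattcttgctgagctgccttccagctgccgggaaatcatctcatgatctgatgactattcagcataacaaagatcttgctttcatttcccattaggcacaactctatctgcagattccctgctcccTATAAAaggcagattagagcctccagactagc
The TATAAA box begins 31 bases before the start of Ccl12 and 32 bases before that of Ccl8. It was found on either strand in 12.4% of 32851 promoter windows of the same length. The windows of Ccl12 and Ccl8 are 64.4% identical in a global alignment. Against 32535 other windows, Ccl12 had a median identity of 58.4% and a 99th percentile of 62.8%, and 20 of these windows were closer to it than Ccl8. Neither window holds the interferon regulatory motif GAAANNGAA (in 7.13% of all windows) or its form with an A added at the end (2.98%), the NF-kB consensus (3.90%) or the AP-1 motif TGANTCA (6.75%), each searched on both strands. The longer form contains the shorter, and a missing match says only that these letters are not in this window. GAAA repeats at other spacings were not searched, and the Ccl8 window holds a closer pair on the reverse strand (tttcatttc). The table used here matched Ccl12, Ccl8 and Ccl1, and the Ccl1 window held GAAANNGAA on the reverse strand.

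All 3 genes had a promoter peak in every library, and this held for 10.3% of named genes in CpG 1, 22.1% in CpG 2, 23.9% in control 1 and 28.4% in control 2. The share was 15% in the authors' list for CpG and 24.7% in that for the control, where the 3 genes also had one. Over all 4 libraries together, 1152 of 21312 named genes (5.41%) had a promoter peak in each. A peak that covered the gene start itself was present in all 4 libraries for 649 of 21295 genes (3.05%), among them Ccl2, Ccl7 and Ccl12. In single libraries such a peak was found at 5.3% of genes in CpG 1, 17.8% in CpG 2, 19.8% in control 1 and 24.1% in control 2, and in the condition lists at 10.9% for CpG and 22.8% for the control. A promoter peak in the CpG libraries alone was seen at 0.61% of genes and in the control libraries alone at 4.3%, and none of the 3 genes was among them. Since the genes were chosen on their promoter peaks, nothing is read from these counts.

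The neighbours are given as a description, since a contrast with genes chosen on their promoter peaks follows in part from that choice. By the shares above, most named genes had no promoter peak in any one list. Ccl11, Ccl8 and Ccl1 had no promoter peak, no peak over the start and no summit within 1 kb of the start in any list. The nearest gene was Ccl11 for 0, 3, 4 and 3 peaks in CpG 1, CpG 2, control 1 and control 2, and their closest summit lay 9.48 kb from its start. Ccl8 was nearest to 5, 5, 3 and 11 peaks in the same order, with the closest summit 21.1 kb away. Ccl1, which the files draw far longer than RefSeq (129035 against 3147 bp), was nearest to 1 peak of control 2, at 35.3 kb. This distance and the absence of a peak at the Ccl1 start refer to the start in the files (82196516). The RefSeq start of Ccl1 was not examined in these coordinates, and the Ccl8 counts come from the same annotation. Ccl11, with no peak at its start, thus lies between Ccl7 and Ccl12, which had one in every list.

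Each peak was deposited with a pileup, the height of stacked fragments at its summit, and a fold enrichment, which is that pileup over the local background as the authors' peak caller computed it. These are the authors' values. They were used to rank peaks within a list, and the percentile given below is the share of all peaks of the same list at or below the peak in fold enrichment. Sequencing depth is unknown, so pileups of different libraries are given side by side and not compared.

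Ccl12 had the highest-ranked peak of the 3 genes in CpG 1, CpG 2 and control 2, and in control 1 Ccl7 ranked above it. The peak over its start had fold enrichments of 18.2 in CpG 1, 78.5 in CpG 2, 28.2 in control 1 and 90.6 in control 2. These were ranks 18, 9, 50 and 6 of the lists, or the percentiles 99.9 and 99.97 in the CpG libraries and 99.8 and 99.99 in the control libraries. Ccl12 thus stood among the first 50 peaks of each library. By the lowest of its 4 percentiles it was 1st of the 1152 genes with a promoter peak in every library, while Ccl2 was 91st and Ccl7 614th. Its mean percentile was 99.9 ± 0.0668 in CpG and 99.9 ± 0.109 in control libraries (SD, n = 2 each), a difference of 0.0123 points (two-sided exact permutation test, p = 1). The pileup was 48 and 167 in CpG 1 and CpG 2, and 64 and 233 in control 1 and control 2. By pileup the percentiles were 97.5 and 99.5 in the CpG lists and 97.9 and 99.8 in the control lists. In control 1 this was below the peaks over the Ccl2 start (99.6) and the Ccl7 start (98.8). The background that pileup and fold enrichment imply was low, at 1.69 and 1.14 in the CpG libraries and 1.31 and 1.58 in the control libraries. This is 0.846, 0.619, 0.772 and 0.921 times the median of the list. The CpG and control libraries thus overlapped at Ccl12, with all percentiles near the top of the scale, which leaves little room for a difference.

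The Ccl12 summit lay 171, 170 and 171 bp before the gene start in CpG 1, CpG 2 and control 2, and 88 bp before it in control 1. The summits of CpG 1 and control 2 share 1 base, 81992499, and that of CpG 2 is the next one. A second promoter peak, farther upstream, stood apart in CpG 1 (summit at -1425 bp, fold enrichment 3.60) and in control 1 (summit at -1364 bp, 15.0). In CpG 2 and control 2 a single peak of 3147 and 3762 bp covered both places. Farther out, peaks nearest to Ccl12 were low: one with its summit 20803 to 20967 bp before the start had fold enrichments of 4.54 in CpG 1, 5.03 in control 1 and 6.95 in control 2, and was not listed in CpG 2. A peak 13683 bp before the start was listed in CpG 2 alone (8.28). Another, with summits 9307 and 9083 bp before the start in control 1 and control 2, was listed in these libraries (5.53 and 6.45) and not in CpG 1 or CpG 2.

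Ccl2 had a high-ranked promoter peak in all libraries but CpG 1. The fold enrichment of the peak over its start was 6.0 in CpG 1, 27.9 in CpG 2, 21.1 in control 1 and 45.6 in control 2. The percentiles were 72.2 and 99.2 in the CpG libraries (ranks 3764 and 216) and 99.5 and 99.8 in the control libraries (ranks 152 and 90). Both CpG values lay below both control values. The same held at 33.4% of the 649 genes with a peak over the start in every library, and the opposite at 14.5%. The mean percentile was 85.7 ± 19.0 in CpG and 99.6 ± 0.197 in control libraries (SD, n = 2 each), a difference of -13.9 points, at the smallest p the design allows (exact permutation test, p = 0.333). The difference rests on CpG 1, and without it was -0.454 points.

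By pileup the Ccl2 peak ranked higher in CpG 1 than by fold enrichment. Its pileup was 41 and 132 in CpG 1 and CpG 2, and 127 and 162 in control 1 and control 2, which are the percentiles 95.8, 99.2, 99.6 and 99.6 of their lists. The local background was 6.0 and 3.77 in the CpG libraries and 5.08 and 2.58 in the control libraries, or 3.0, 2.05, 3.0 and 1.5 times the list's median. In CpG 1 the pileup was therefore in the upper tail of its list while the ratio to the background was not. The summits lay 97, 68, 17 and 43 bp before the start in the same order of libraries. Upstream, a peak with summits between -2587 and -2846 bp from the start had fold enrichments of 6.34 and 9.70 in the CpG libraries and 15.8 and 12.02 in the control libraries. A lower one, with summits between -5203 and -5336 bp, had 5.16 and 6.25 in the CpG libraries and 5.61 and 7.66 in the control libraries. Both upstream peaks were thus listed in all 4 libraries. They were classed as intron and lie within the annotated span of Gm17268 (81919049 to 81929388). In CpG 1 a further peak with its summit at 850 bp (6.27) was classed as intron with Ccl2 as its nearest gene. Ccl2 and Gm17268 overlap there, and the gene of the intron was not determined. The single broad peak covered this place in the other libraries.

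Ccl7 had the widest spread of ranks. The peak over its start had fold enrichments of 3.86 in CpG 1, 16.98 in CpG 2, 29.3 in control 1 and 53.5 in control 2. The percentiles of this peak were 14.2 and 96.3 in the CpG libraries (ranks 11624 and 945) and 99.9 and 99.9 in the control libraries (rank 44 in both). Both CpG values lay below both control values, with means of 55.3 in CpG and 99.9 in control libraries and a difference of -44.6 points (exact permutation test, p = 0.333). This order was seen at 33.4% of the 649 genes. The difference was -3.52 points without CpG 1 and -85.6 points without CpG 2. The comparison by the authors' promoter class gave another value, because the broad peak over the Ccl7 start in control 1 was classed elsewhere in the gene and a small peak 709 bp before the start (percentile 67.4) took its place. On that basis the mean was 55.3 ± 58.1 in CpG and 83.6 ± 23.0 in control libraries (SD, n = 2 each), with a difference of -28.3 points (exact permutation test, p = 0.667), and without CpG 1 it was 12.7 points, in the opposite direction. The -28.3 points also became -12.1 without control 2 and -44.6 without control 1.

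The pileup over the Ccl7 start was 26 and 80 in CpG 1 and CpG 2, and 78 and 123 in control 1 and control 2. These are the percentiles 83.3 and 97.5 in the CpG lists and 98.8 and 99.1 in the control lists, a difference of the means of -8.54 points, or -1.42 without CpG 1 and -15.7 without CpG 2. The local background was 6.0 and 3.77 in the CpG libraries, the same values as at Ccl2, and 1.69 and 1.32 in the control libraries, which is 3.0, 2.05, 1.00 and 0.766 times the list's median. At Ccl7 the background was thus above the list's median in both CpG lists and in neither control list. It stood at the percentiles 90.97 and 82.65 of the CpG lists and 47.99 and 29.24 of the control lists. Exact multiples of the median were common in CpG 1, with 5.35% of peaks at 2 times and 2.72% at 3 times. In control 1, 10.16% of peaks lay at the median itself. In CpG 2 only 0.0928% lay at 2 times. The weight of such steps in the contrast was not tested. The 2 lists of a condition were called against 1 shared IgG library, so their backgrounds are not independent. The part of the background in the lower CpG ranks was not tested. The summits lay 26 and 35 bp before the start in CpG 1 and CpG 2, 20 bp after it in control 1 and 77 bp before it in control 2. Behind the gene, CpG 1 and CpG 2 had separate peaks with summits at 2194 and 1923 bp (fold enrichments 3.20 and 14.4), and the broad peaks of the control libraries covered those places.

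**Figure D2:**
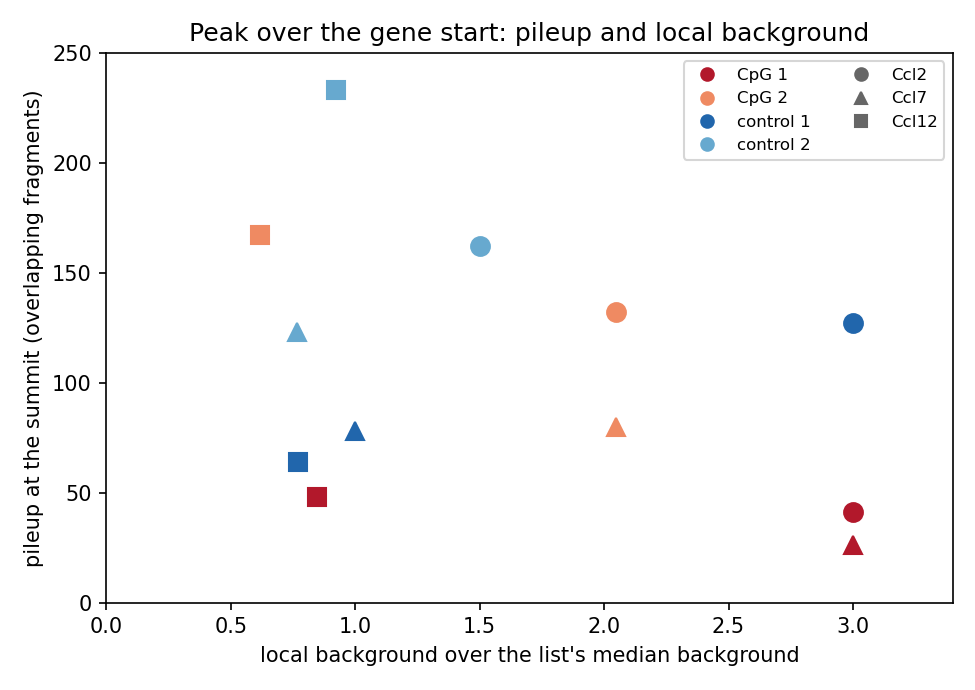
Pileup at the summit (vertical axis, fragments) against the local background as a multiple of the median of the same list (horizontal axis) for the peak over each gene start, 1 point per library. The Ccl12 points lie at 0.619 to 0.921 times the median, and the Ccl2 and Ccl7 points of CpG 1 at 3.0 times.

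**Figure D3:**
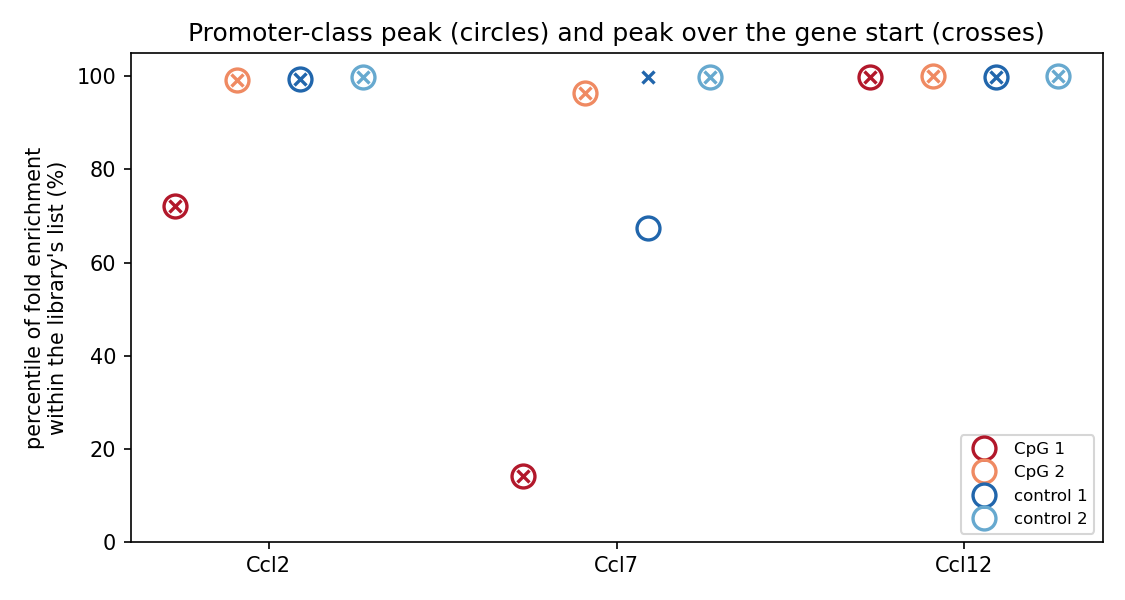
Percentile by fold enrichment, within its own list, of the promoter-class peak (circles) and of the peak over the start (crosses) of each gene in each library, with CpG left of the control. Both marks coincide except at Ccl7 in control 1 (67.4 and 99.9). Ccl12 lies between 99.8 and 99.99 in all 4 libraries, and CpG 1 has the lowest value of Ccl2 (72.2) and of Ccl7 (14.2).

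Ratios of pileup between genes within a library do not need the depth. The Ccl12 pileup was 1.17 and 1.27 times that of Ccl2 in the CpG libraries, and 0.504 and 1.44 times in the control libraries so that the CpG values lay between the control values. Relative to Ccl7 it was 1.85 and 2.09 times as high in the CpG libraries, and 0.821 and 1.89 times in the control libraries, and the conditions overlapped. In control 1 alone Ccl12 lay below both other genes. The ratio of Ccl7 to Ccl2 was 0.634 and 0.606 in the CpG libraries and 0.614 and 0.759 in the control libraries, again with overlap. Among the 21, 23, 27 and 42 peaks of the cluster window in CpG 1, CpG 2, control 1 and control 2, Ccl12 was 1st by fold enrichment in all but control 1, where it was 3rd. Ccl2 was 7th, 2nd, 4th and 3rd and Ccl7 18th, 6th, 2nd and 2nd in the same order of libraries.

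The summits were placed alike in all libraries. The distance between the Ccl2 and Ccl7 summits was 10212 and 10174 bp in the CpG libraries and 10178 and 10107 bp in the control libraries. It was 55988 and 55998 bp in the CpG libraries and 56025 and 56039 bp in the control libraries between Ccl7 and Ccl12. The 4 summits of a gene fell within 80 bp for Ccl2, 97 bp for Ccl7 and 83 bp for Ccl12. For comparison, the median of this range was 142 bp over the 649 genes, and in 29.3% of them the 4 summits lay within 100 bp, a limit chosen with these values known.

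**Figure D4:**
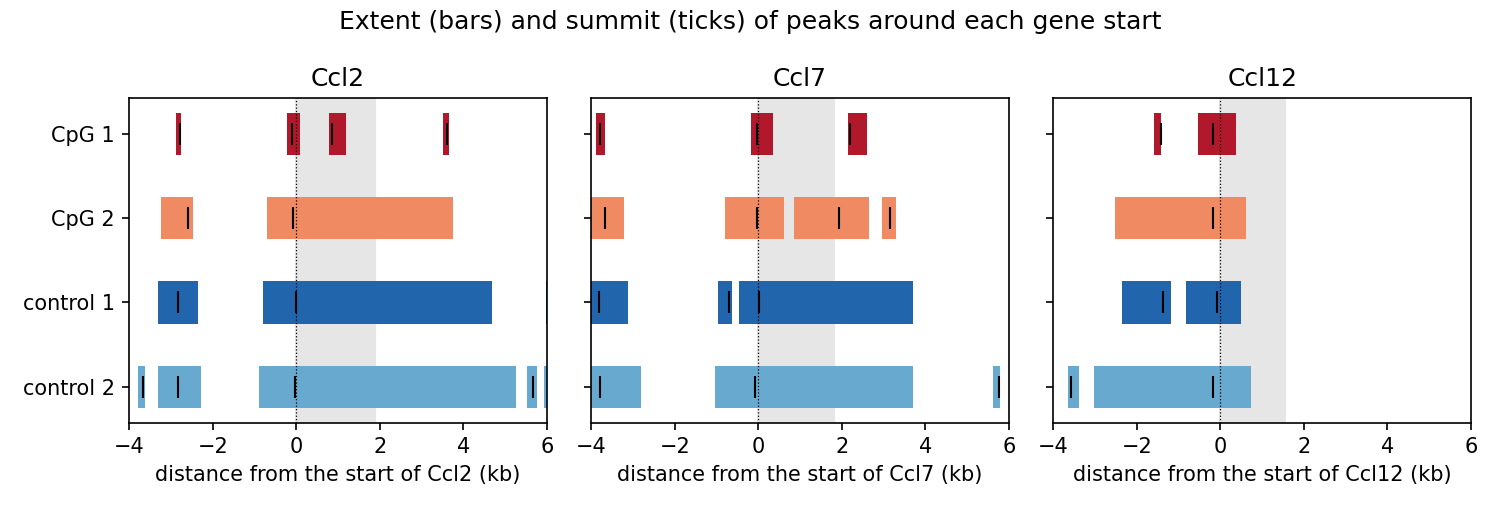
Extent of the peaks around the starts of Ccl2, Ccl7 and Ccl12 in each library (CpG libraries above the control libraries), with distance from the gene start in kb on the horizontal axis, the gene shaded in grey and the summit marked by a tick on each peak. The summit of the peak over the start lies between 171 bp before and 20 bp after the start in all libraries, while the peaks differ in extent.

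The peaks over the starts of Ccl2 and Ccl7 were shorter in both CpG libraries than in both control libraries. At Ccl2 the peak was 298 bp long in CpG 1, 4464 bp in CpG 2, 5490 bp in control 1 and 6175 bp in control 2. The means were 2381 ± 2946 bp in CpG and 5832.5 ± 484 bp in control libraries (SD, n = 2 each), a difference of -3451.5 bp (exact permutation test, p = 0.333). Without CpG 1 the difference was -1368.5 bp. In CpG 2, control 1 and control 2 this peak also ran over the start of Gm17268 (81929388), so its length does not belong to the Ccl2 start alone. In CpG 1 it did not, and a separate peak lay at 81929908 to 81930045. All peaks of the region over the Ccl2 start together covered 834 and 4464 bp in the CpG libraries and 5490 and 6175 bp in the control libraries. The length at the Ccl2 start alone was not tested. At Ccl7 the lengths were 510 bp in CpG 1, 1412 bp in CpG 2, 4159 bp in control 1 and 4731 bp in control 2. The means were 961 ± 638 bp in CpG and 4445 ± 404 bp in control libraries (SD, n = 2 each), with a difference of -3484 bp (exact permutation test, p = 0.333). At Ccl12 the lengths overlapped between the conditions, at 911 and 3147 bp in the CpG libraries and 1323 and 3762 bp in the control libraries (p = 0.667, exact permutation test).

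A shorter peak in both CpG libraries was common. It was seen at 300 of the 649 genes (46.2%), against 8 genes (1.23%) with a longer peak in both, and Ccl2 and Ccl7 are among the 300. The median length over the 649 genes was 305 bp in CpG 1, 741 bp in CpG 2, 747 bp in control 1 and 958 bp in control 2. Within each list the peaks of the 3 genes were long, at or above the percentile 95.1 in length in every library, except Ccl2 in CpG 1 (75.9). The median length percentile over the 649 genes was 31.4 in CpG 1, 75.7 in CpG 2, 70.1 in control 1 and 78.8 in control 2. The region over the Ccl7 start held 2 peaks in CpG 1, 3 in CpG 2, 2 in control 1 and 1 in control 2. All peaks of this region together covered 954 and 3534 bp in the CpG libraries and 4496 and 4731 bp in the control libraries.

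**Figure D5:**
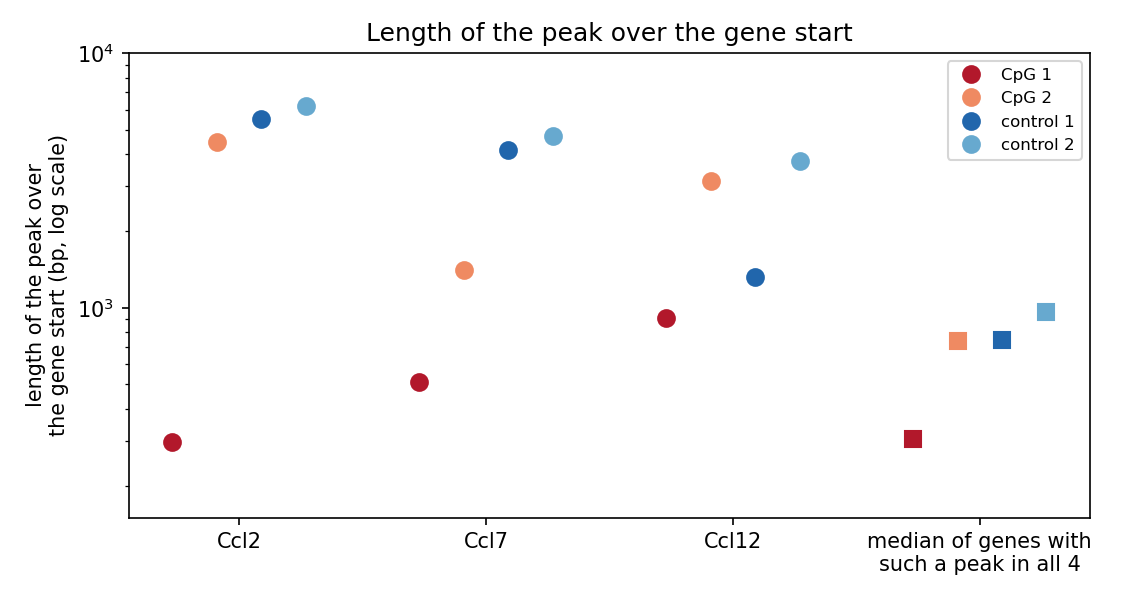
Length in bp, on a log scale, of the peak over each gene start in each library (circles), with CpG left of the control, and the median length over the 649 genes with such a peak in all 4 libraries (squares). At Ccl2 and Ccl7 both CpG points lie below both control points, and at Ccl12 they overlap.

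The number of peaks assigned to the 3 genes was 9 and 8 in the CpG libraries and 10 and 12 in the control libraries. The means were 8.5 ± 0.707 in CpG and 11 ± 1.41 in control libraries (SD, n = 2 each), with a difference of -2.5 (exact permutation test, p = 0.333), and the control lists were also longer than the CpG lists. As a share of its list the number was 0.0664% in CpG 1, 0.0309% in CpG 2, 0.0342% in control 1 and 0.0322% in control 2. With all lists limited to the 13553 strongest peaks the direction turned, to 7.5 in CpG and 5.5 in control libraries (exact permutation test, p = 0.667). It also turned in the authors' lists for whole conditions, with 8 peaks for CpG and 7 for the control.

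The cluster window ran from 50 kb before Ccl2 to 50 kb after the last of the 6 genes, Ccl1, as the files draw it. Peaks covered 6908 and 24823 bp of it in the CpG libraries and 28043 and 38027 bp in the control libraries. The means were 15865.5 ± 12668 bp in CpG and 33035 ± 7060 bp in control libraries (SD, n = 2 each), with a difference of -17169.5 bp (exact permutation test, p = 0.333). The window held 0.208% and 0.215% of all bases covered by peaks in the CpG libraries and 0.226% and 0.199% in the control libraries, so the shares of the conditions overlapped. In the authors' lists for whole conditions it held 0.290% for CpG and 0.224% for the control. Without CpG 1 the difference was -8212 bp, and without CpG 2 it was -26127 bp. None of the 8 exact tests over the conditions could pass a threshold of 0.05 with 2 libraries each, and the lowest p after Benjamini-Hochberg adjustment over them was 0.533. The percentile test on the peak over the Ccl7 start, added after seeing the data, is not among the 8, which hold the promoter-class test.

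Peaks that overlapped by at least 1 bp were merged into 47 regions in this window. Of these, 10 regions were listed in all 4 libraries, 5 in 3, 8 in 2 and 24 in 1 library. Of the single-library regions, 18 were listed in control 2, the longest list, 5 in control 1 and 1 in CpG 2. Regions found in the CpG libraries alone, and in both of them, numbered 0, against 4 for the control libraries. Of 55621 regions merged in the same way over all chromosomes, 1.15% were of the first kind and 8.7% of the second. Their shares by number of libraries are not given here. Nothing is therefore read from the number of libraries in which regions of the window were listed. The 3 gene starts account for 3 of the 10 shared regions. Of the 47 regions, 14 held a peak of Ccl2, Ccl7 or Ccl12, and these were listed in 4 libraries for 6 regions, in 3 for 1, in 2 for 1 and in 1 library for 6. The single-library regions were the CpG 2 peak before Ccl12 given above and 5 low control peaks. In control 2 they lay at -6635 and -3664 bp from Ccl2 (fold enrichments 4.41 and 5.90), at 5772 bp from Ccl7 (4.96) and at -3584 bp from Ccl12 (5.72). In control 1 the 5th lay at -9717 bp from Ccl12 (5.03).

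A further shared region lay between Ccl2 and Ccl7, with its summits at -3799, -3667, -3810 and -3802 bp from the Ccl7 start in CpG 1, CpG 2, control 1 and control 2. Its fold enrichment was 4.0 in CpG 1, 14.1 in CpG 2, 10.3 in control 1 and 21.6 in control 2, and its pileup was 27, 84, 88 and 169. The pileup there was above that of the peak over the Ccl7 start in all 4 libraries (26, 80, 78 and 123 in the same order). Only in control 2 was it also above that of the peak over the Ccl2 start (162), and only in that library was Ccl7 given as its nearest gene. Both upstream regions of Ccl2 were shared as well. Of the other 4 shared regions, 3 had summits between -30603 and -11663 bp from the Ccl2 start. The 4th lay beyond Ccl8, with summits 38146 to 38292 bp after the Ccl12 start. The 49400 bp between the regions over Ccl7 and Ccl12, which hold Ccl11, had 10 regions. Of these, 0 were listed in all 4 libraries and none had a fold enrichment above 11.9.

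The other CC chemokine ligands, a list drawn up with earlier results known, were described by their counts. Of 13 named members, 4 had a promoter peak in CpG 1, 3 in CpG 2, 3 in control 1 and 5 in control 2, beside shares of 10.3%, 22.1%, 23.9% and 28.4% of all named genes. Only Ccl3 (MIP-1 alpha) and Ccl24 (eotaxin-2) had one in all 4 libraries, and 7 had one in none. The peaks of Ccl24 ranked at the percentiles 31.5 and 79.3 in the CpG libraries and 89.1 and 96.5 in the control libraries. Ccl3 had the percentiles 97.5 and 99.5 in the CpG libraries and 99.9 and 99.6 in the control libraries. Of 9 named CC chemokine receptors and decoys, 1, 3, 4 and 3 had one in the same order, and Ccrl2, a receptor-like protein that binds chemerin, had one in all 4. Its percentiles were 94.7 and 86.6 in the CpG libraries and 86.3 and 40.1 in the control libraries. Ccr2, the receptor of Ccl2, Ccl7 and Ccl12, had no promoter peak in any library.

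Among the 1152 genes with a promoter peak in all 4 libraries, likeness to a member was measured as the Euclidean distance over the 4 percentiles. The genes closest to Ccl12 were Pf4 (1.30 percentile points), Ccl3 (2.47) and Gm44850 (3.16). Closest to Ccl2 were Gm46189 (2.83), Cxcl2 (5.13) and Pik3cg (8.02), and closest to Ccl7 were Rad51ap1 (5.12), Twf1 (8.79) and Calr (11.01). Cxcl2 encodes a neutrophil chemoattractant. Since the distance uses all 4 percentiles, the likeness in each library follows from the choice.

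The labelled cell type was set against marker genes. Of 9 named macrophage markers, 3 had a promoter peak in CpG 1, 7 in CpG 2, 7 in control 1 and 8 in control 2, with Adgre1 and Cd68 in all 4, beside the same 10.3%, 22.1%, 23.9% and 28.4% of all named genes. No B cell marker (of 3 named) and no erythroid or megakaryocyte marker (of 2 named) had one in any library. Over the 4 libraries, markers of other types had a peak at 1 to 2 of 3 named for dendritic cells, 0 to 1 of 3 for T and NK cells, 0 to 2 of 5 for neutrophils and 1 of 2 for fibroblasts and endothelial cells. These lists have few named members, since a gene counts as named only where it was given as nearest to some peak. In CpG 1 the shares for dendritic cells, for T and NK cells, and for fibroblasts and endothelial cells were no lower than that for macrophages. A peak at a gene is no measure of its expression, and the part of other cells in the results was not tested.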

How the data were processed

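Anti-IRF5 CUT&Tag peak lists of 4 libraries (2 CpG, 2 control) and of 2 whole conditions were used, and the 4 IgG libraries of the 8 samples were not analysed here. The submitters' processing notes name MACS2 2.1.0 as well as BWA 0.7.12, fastp 0.20.0 and ChIPseeker. No genome build is given in the sources used here. The pileup signal at each summit and the fold enrichment, a ratio to the local background, were deposited by the authors. The −log10 of the p-value and of the q-value (the q-value was unused in the condition lists) was also deposited by the authors, under damaged headers that were read from the order of the columns, and no listed peak had a −log10 p under 5.00. The lines that continued an overlong annotation cell (281 in CpG 1, 682 in CpG 2, 875 in control 1 and 1017 in control 2) were skipped, and peaks on 21 assembled chromosomes were kept.

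The local background was computed as (pileup + 1) / fold enrichment − 1. The 8 condition tests were two-sided exact permutation tests over the 6 assignments of the libraries, with a smallest p of 0.333 and Benjamini-Hochberg adjustment, and were checked on simulated data. Depth is unknown, so no count model was fitted and no interval is given. The genes, lists, tests and alternatives were chosen with earlier results of these data known, and the lengths of the peaks over the starts and the choice of the peak over the start were added after seeing the data. Named were the 3 genes, their neighbours in the cluster, members of 2 CC chemokine lists bound in all 4 libraries and the 3 genes most like each of the 3, and Ccr2, a list member chosen after its values were seen. Alternatives were the ranking measure, list length, a −log10 q of at least 5, the assignment of peaks, contigs, the authors' condition lists, flanks of 10 kb, an overlap of 50%, leaving out each library, and a replicate block. Promoter windows came from RefSeq (GRCm38.p6) and were aligned with Biopython 1.88 (match 1, mismatch -1, gap opening -2, gap extension -0.5). Python 3.11.15, pandas 2.3.3, NumPy 2.4.6 and matplotlib 3.10.9 were used.

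Same-numbered libraries shared only a number in the labels: the correlation of their deviations from the condition means was 0.101 over 1152 genes.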

Additional observations from a re-analysis of the deposited data

How the results depend on the processing

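Of 92 alternatives over 9 results, 79 kept the direction or stayed within the spread, 12 turned the direction and 1 moved a value. No result was able to pass a threshold under any of them. Some alternatives could hardly turn a result, so the 79 are no measure of stability. The replicate block cannot change a difference of means in this balanced design. Leaving out a library makes it easier for a region to be listed in all the others. The number of member peaks, CpG minus control, was 2 with lists of equal length, 1 in the lists of whole conditions and 0 when a summit within 1 kb of a start was asked for, and -3.5 to -1.5 with a library left out. The Ccl7 percentile difference of the promoter-class peak, which in control 1 is the small peak beside the broad one, was 20.8 when ranked by pileup and -69.4 to 12.7 with a library left out. For the peak over the Ccl7 start it was -8.54 by pileup. The Ccl12 percentiles lie at the top of their scale, so their difference could only be small and says nothing of stability. It was -0.00587 at a −log10 q of at least 5, -0.0148 in the lists of whole conditions, -0.00257 ranked by −log10 q, -0.309 ranked by pileup, and -0.0648 to 0.0895 with a library left out. The Ccl12 length difference was -1733 to 706 bp with a library left out. For Ccl2 the percentile difference was -27.4 to -0.454 and the length difference -5534.5 to -1368.5 bp, for Ccl7 the length difference was -3935 to -3033 bp, for the covered length -26127 to -8212 bp, and for the regions in all libraries 10 to 12, with a library left out. The cause of these turns was not tested. The replicate block left the differences at -2.5 peaks, -13.9 points for Ccl2, -28.3 points for Ccl7, 0.0123 points for Ccl12 and -17169.5 bp, with a smallest attainable exact p of 0.5, so no call was possible with or without it, and no pairing is given by the labels. Depth is unknown, and 2 libraries per condition limit the precision of every comparison.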
